A study of Homo sapiens with 14 samples.

Results

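The 9 enzymes that turn squalene epoxide into cholesterol were followed at the transcript level in Jurkat cells under chemical or genetic interference with the kinase scaffold KSR2. They were taken by gene symbol, in pathway order from LSS through CYP51A1, TM7SF2, MSMO1, NSDHL, HSD17B7, EBP and SC5D to DHCR7. All 9 were found among the 61541 genes of the count table, and 8 of them passed the filter on low counts. Jurkat is a line derived from a T-cell acute lymphoblastic leukaemia. Polyadenylated RNA was sequenced from 5 groups, 14 libraries in all. Cells exposed to the KSR inhibitor APS-2-79 (KSRi, n = 3) were set against cells exposed to DMSO, its solvent control (n = 3). Cells with KSR2 guide 1 (n = 3) or KSR2 guide 2 (n = 3) were set against cells with a non-targeting guide (NT, n = 2). Sample titles name a CRISPR knockout, the design text names CRISPRi, and the library names of the control name a hairpin, so the genetic groups are called here by their guides. The library protocol describes the line as transduced for all groups. Dose, exposure time and guide sequences were not given in the sources used here, and nothing says whether replicates were separate cultures. The p-values therefore measure the spread between these libraries, which may be technical.

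Cholesterol is built in the endoplasmic reticulum, where squalene epoxide is folded into the first sterol, lanosterol, and lanosterol is then trimmed and reduced. LSS closes the rings. CYP51A1 removes a methyl group, TM7SF2 or LBR reduces the double bond that is left, and MSMO1, NSDHL and HSD17B7 strip a further pair of methyl groups as a complex held by ERG28. EBP moves a double bond, SC5D adds one, and DHCR7 removes one in the last step of one branch of the route. When membranes are short of cholesterol, the SREBP factors are freed from the endoplasmic reticulum and raise transcription of these enzymes, which they do together with the factors NF-Y and Sp1.

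Because the enzymes moved together with the inhibitor, the letters around their transcription starts were read. RefSeq (GRCh38.p14) gave 11 promoter windows for the 9 enzymes, 1 for each of 7 and 2 each for SC5D and DHCR7, each window running from 250 bases before to 50 bases after a start. The NF-Y box, CCAAT on either strand, was present in 9 of the 11 windows and in 8 of the 9 enzymes, against 34.6% of all 35116 windows in the table. The 2 windows of SC5D overlap, and the NF-Y box counted in each of them is the same box, whereas the 2 windows of DHCR7 do not overlap. At least 2 NF-Y boxes were present in 5 of the 11 windows, against 10.8% of all windows. The Sp1 box, GGGCGG on either strand, was present in 9 windows and 8 enzymes, against 45.0% of all windows. The strict core of the sterol regulatory element, TCACNCCAC on either strand, was in 0 of the 11 windows, against 1.13% of all windows. No NF-Y box overlapped an Sp1 box, while neighbouring NF-Y boxes of NSDHL share letters. A match is a description of letters and no match says only that those letters are not in the window. CYP51A1 had 1 Sp1 box and no NF-Y box, and the second DHCR7 window had neither. The windows of 4 enzymes are printed 5′ to 3′ on the strand of the gene, with NF-Y boxes (CCAAT, or ATTGG where it lies on the other strand) in capitals. They were chosen as the enzyme with the largest change with the inhibitor (TM7SF2, chr11:65111622-65111921, plus strand, 1 box), the enzyme with the next largest (MSMO1, chr4:165327419-165327718, plus strand, 4 boxes), the enzyme with the smallest and with the most boxes (NSDHL, chrX:152830813-152831112, plus strand, 5 boxes), and the enzyme that differed most between the control groups (DHCR7, first window, chr11:71448344-71448643, minus strand, 2 boxes).
TM7SF2: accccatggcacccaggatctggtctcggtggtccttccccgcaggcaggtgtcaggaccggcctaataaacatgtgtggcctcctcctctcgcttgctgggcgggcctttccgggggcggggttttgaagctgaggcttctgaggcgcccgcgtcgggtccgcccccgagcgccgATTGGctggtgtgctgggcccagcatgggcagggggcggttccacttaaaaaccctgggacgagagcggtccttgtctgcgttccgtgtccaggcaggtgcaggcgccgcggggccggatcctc
MSMO1: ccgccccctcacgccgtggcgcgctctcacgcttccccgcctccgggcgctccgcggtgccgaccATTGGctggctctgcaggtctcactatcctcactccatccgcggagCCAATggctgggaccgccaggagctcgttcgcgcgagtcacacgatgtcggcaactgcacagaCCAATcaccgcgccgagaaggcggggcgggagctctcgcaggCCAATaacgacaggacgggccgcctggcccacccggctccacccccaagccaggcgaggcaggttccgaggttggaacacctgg
NSDHL: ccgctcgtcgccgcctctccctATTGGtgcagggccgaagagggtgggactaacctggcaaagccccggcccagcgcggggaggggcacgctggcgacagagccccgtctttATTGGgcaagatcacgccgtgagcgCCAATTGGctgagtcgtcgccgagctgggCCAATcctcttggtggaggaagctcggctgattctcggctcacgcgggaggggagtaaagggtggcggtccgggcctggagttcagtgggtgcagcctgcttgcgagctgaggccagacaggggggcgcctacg
DHCR7: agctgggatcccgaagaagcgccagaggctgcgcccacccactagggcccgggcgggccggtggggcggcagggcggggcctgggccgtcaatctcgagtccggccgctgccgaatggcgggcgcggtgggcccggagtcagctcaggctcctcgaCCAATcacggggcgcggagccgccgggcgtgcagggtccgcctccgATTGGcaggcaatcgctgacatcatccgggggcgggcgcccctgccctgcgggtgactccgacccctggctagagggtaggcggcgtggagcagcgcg

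**Figure D1:**
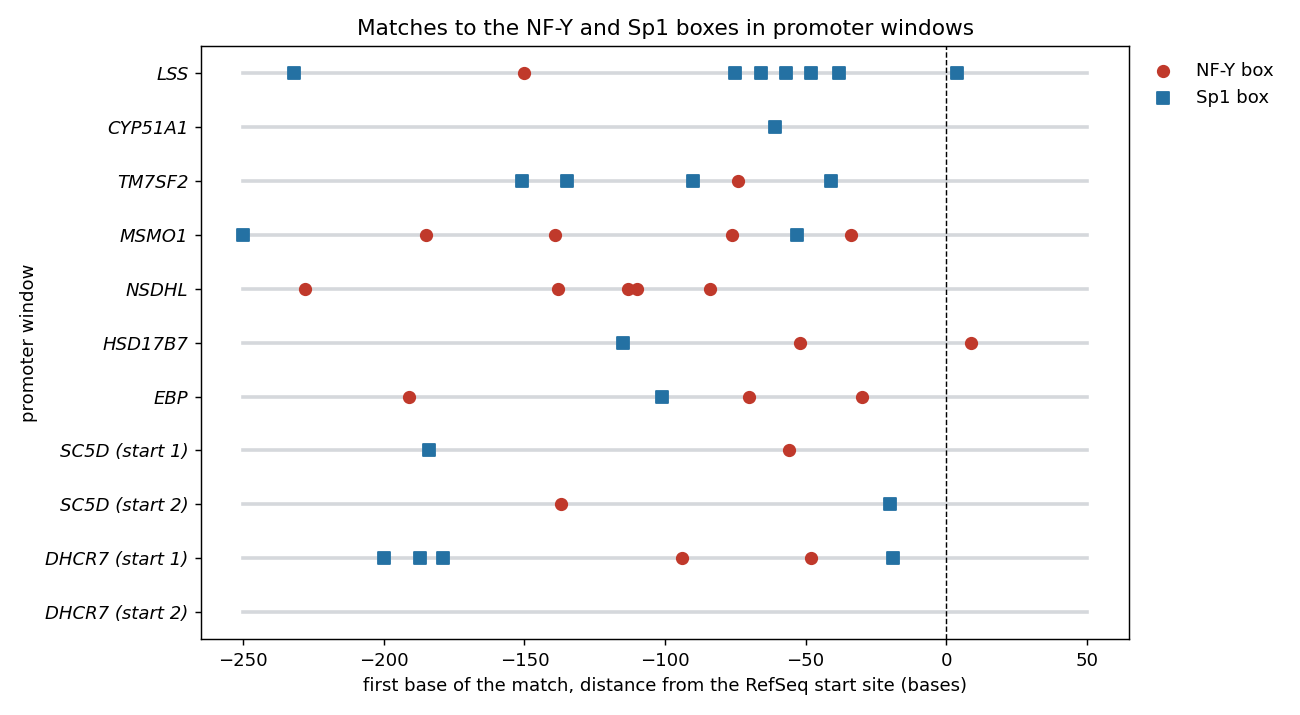
Matches to the NF-Y box (red circles) and the Sp1 box (blue squares) in the 11 promoter windows of the 9 enzymes, by distance in bases of the first letter of the match from the RefSeq start site (dashed line). MSMO1 and NSDHL held 4 and 5 NF-Y boxes, LSS held 7 Sp1 boxes, and the second DHCR7 window held no match.

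Library totals were 21710466 to 45897075 counts for KSRi, 27099107 to 43027877 for DMSO, 33919545 to 38801454 for guide 1, 29979565 to 42717502 for guide 2 and 25794010 to 34535929 for NT. Levels are given as CPM, counts per 1000000 counts of a library after scaling of library sizes by edgeR's TMM method. The targeted gene checked the guide labels, since KSR2 had 0.541 ± 0.11 CPM with guide 1 and 0.766 ± 0.0492 CPM with guide 2 (SD, n = 3 each), against 29.5 ± 0.786 CPM in NT (n = 2). All 12 T-lineage markers reached 1 CPM, and 12 of 15 markers of other cell types stayed under 1 CPM in every library. The summed level of those 15 was 108 to 115 CPM in KSRi against 88.7 to 105 CPM in DMSO, and 124 to 150 CPM with guide 1, 140 to 151 CPM with guide 2 and 138 to 168 CPM in NT. Of the 15, 6 were at 0 in all KSRi libraries, 9 in all DMSO libraries, 7 in all guide 1 libraries and 6 each in all guide 2 and all NT libraries. The 3 markers that reached 1 CPM were PECAM1, CD79A and COL1A1. PECAM1, an endothelial and leukocyte adhesion molecule, averaged 76.5 CPM in KSRi against 69 CPM in DMSO, and 78.7 CPM with guide 1, 87 CPM with guide 2 and 87.6 CPM in NT. CD79A, a B-cell receptor chain, averaged 24 CPM in KSRi against 22.3 CPM in DMSO, and 53.7 CPM with guide 1, 52.2 CPM with guide 2 and 57.3 CPM in NT. COL1A1, a fibroblast collagen, averaged 10.8 CPM in KSRi against 6.24 CPM in DMSO, and 7.85 CPM with guide 1, 6.59 CPM with guide 2 and 7.35 CPM in NT. By edgeR COL1A1 rose with the inhibitor (log2 change 0.78, adjusted p = 0.000361), and CD79A was higher in NT than in DMSO (1.36, adjusted p = 3.61e-07), as was PECAM1 (0.34, adjusted p = 0.00319). CSF1R, HBB, EPCAM and KRT19, markers of monocytes, erythroid cells and epithelium, were at 0 in every library. The mitochondrial share of counts was 1.12% to 2.51% in KSRi and 1.27% to 1.45% in DMSO, and 1.76% to 2.37% with guide 1, 1.15% to 2.71% with guide 2, and 2.5% and 1.85% in the NT libraries. KSRi libraries differed more among themselves (chi-square per degree of freedom 15.8 to 45.04) than DMSO libraries did (5.46 to 7.32). The part of these differences in the results was not tested.

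To see how the enzymes responded to the inhibitor, KSRi libraries were compared with DMSO libraries. All 8 tested enzymes rose, by 2.69-fold (NSDHL) to 7.55-fold (TM7SF2), where 22.0% of the 18963 tested genes were called higher and 18.7% lower by edgeR's quasi-likelihood test (Benjamini-Hochberg adjusted p under 0.05). A log2 change is the log2 of the fold between group means in that fit. Their median was 1.77, against 0.02 over all tested genes. The 9 enzymes together took 0.526% ± 0.0383 of all counts in KSRi libraries and 0.103% ± 0.000683 in DMSO libraries (SD, n = 3 each). Each of the 8 had at least 8.77 CPM in all 14 libraries, so none entered the test through the KSRi group alone. Whether more cells carried these transcripts or each cell carried more cannot be told apart in bulk RNA.

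LSS, the cyclase that makes lanosterol (ENSG00000160285, chromosome 21, 46188141 to 46228824, minus strand), had the highest level of the set per kilobase of exon in KSRi. It stood at 2490, 2980 and 3550 CPM in the KSRi libraries, against 478, 466 and 489 CPM in the DMSO libraries. The lowest KSRi library was 5.08 times the highest DMSO library. The log2 change was 2.65 (SE 0.11, 95% interval 2.42 to 2.89, edgeR adjusted p = 1.96e-11). The KSRi libraries of LSS spread over 1.43-fold, the widest spread of any tested enzyme in any group, while the DMSO libraries spread over 1.05-fold. Annotated antisense genes share 570 of its 7238 exon bases and had at most 19 counts in a library.

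TM7SF2, the sterol reductase that acts after CYP51A1 (ENSG00000149809, chromosome 11, 65111845 to 65116384, plus strand), had the largest change of the set. Its levels were 159, 181 and 215 CPM in KSRi and 26.6, 21.1 and 25.8 CPM in DMSO. The groups lay far apart, with a log2 change of 2.92 (SE 0.11, 95% interval 2.68 to 3.15, edgeR adjusted p = 6.32e-12). Only 16 of its 3408 exon bases are shared with a neighbour, VPS51. LBR, the inner nuclear membrane protein that can carry out the same reduction, did not pass the test, at 436 ± 18.1 CPM in KSRi and 434 ± 8.05 CPM in DMSO (SD, n = 3 each; log2 change 0.01, SE 0.06, edgeR adjusted p = 0.945). Per kilobase of exon, TM7SF2 averaged 54.3 CPM in KSRi and 7.19 CPM in DMSO, and LBR averaged 83 CPM in KSRi and 82.6 CPM in DMSO. On this per-length scale the transcript levels of the alternative reductases lay closer together in KSRi than in DMSO.

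The complex that removes the methyl groups at the fourth ring carbon rose in all 3 of its catalytic members. MSMO1, its oxidase (ENSG00000052802, chromosome 4, 165327623 to 165343160, plus strand), had 1050, 1140 and 1120 CPM in KSRi and 162, 161 and 144 CPM in DMSO. With a log2 change of 2.83 (SE 0.08, 95% interval 2.67 to 2.99) it had the lowest edgeR adjusted p of the set, 1.32e-13. NSDHL, the decarboxylating dehydrogenase (ENSG00000147383, chromosome X, 152830967 to 152869729, plus strand), had 92.4, 103 and 107 CPM in KSRi and 39.4, 34.2 and 38.6 CPM in DMSO. Its log2 change of 1.43 was the smallest of the set (SE 0.08, 95% interval 1.25 to 1.61, edgeR adjusted p = 1.81e-09). HSD17B7, the keto reductase of the complex (ENSG00000132196, chromosome 1, 162790702 to 162812817, plus strand), had 130, 137 and 132 CPM in KSRi and 48.2, 48.7 and 49.1 CPM in DMSO. Its replicates were the tightest of the set, within 1.06-fold in KSRi and 1.02-fold in DMSO, and the log2 change was 1.45 (SE 0.08, 95% interval 1.29 to 1.62, edgeR adjusted p = 5.18e-10). Reads of HSD17B7 may be split with its unprocessed pseudogene HSD17B7P2, with 94 to 391 counts a library, which itself rose by 1.12 on the log2 scale (SE 0.14, edgeR adjusted p = 7.13e-06; mean 10.3 CPM in KSRi and 4.7 CPM in DMSO).

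The 3 enzymes of the last steps rose too, with 95% intervals that lay below those of LSS, TM7SF2 and MSMO1. The intervals of NSDHL and HSD17B7, earlier in the route, lay below them as well. EBP, the isomerase (ENSG00000147155, chromosome X, 48521158 to 48528716, plus strand), had 49, 57.3 and 57.8 CPM in KSRi and 19.4, 16 and 16.6 CPM in DMSO. Its log2 change was 1.66 (SE 0.10, 95% interval 1.45 to 1.86, edgeR adjusted p = 1.5e-09). SC5D, the desaturase (ENSG00000109929, chromosome 11, 121292453 to 121308694, plus strand), had 222, 208 and 193 CPM in KSRi and 72.5, 73.3 and 69.7 CPM in DMSO. Its log2 change was 1.53 (SE 0.07, 95% interval 1.39 to 1.67, edgeR adjusted p = 3.94e-11), and the KSRi library with the highest LSS had the lowest SC5D. DHCR7, the reductase that yields cholesterol and is deficient in Smith-Lemli-Opitz syndrome (ENSG00000172893, chromosome 11, 71428193 to 71452868, minus strand), had 1030, 1270 and 1210 CPM in KSRi and 315, 311 and 320 CPM in DMSO. Its log2 change was 1.89 (SE 0.10, 95% interval 1.68 to 2.09, edgeR adjusted p = 2.77e-10), and the lowest KSRi library was 3.2 times the highest DMSO library. An antisense gene within its locus (ENSG00000254682, 329 to 1480 counts) shares no annotated exon base with it.

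**Figure D2:**
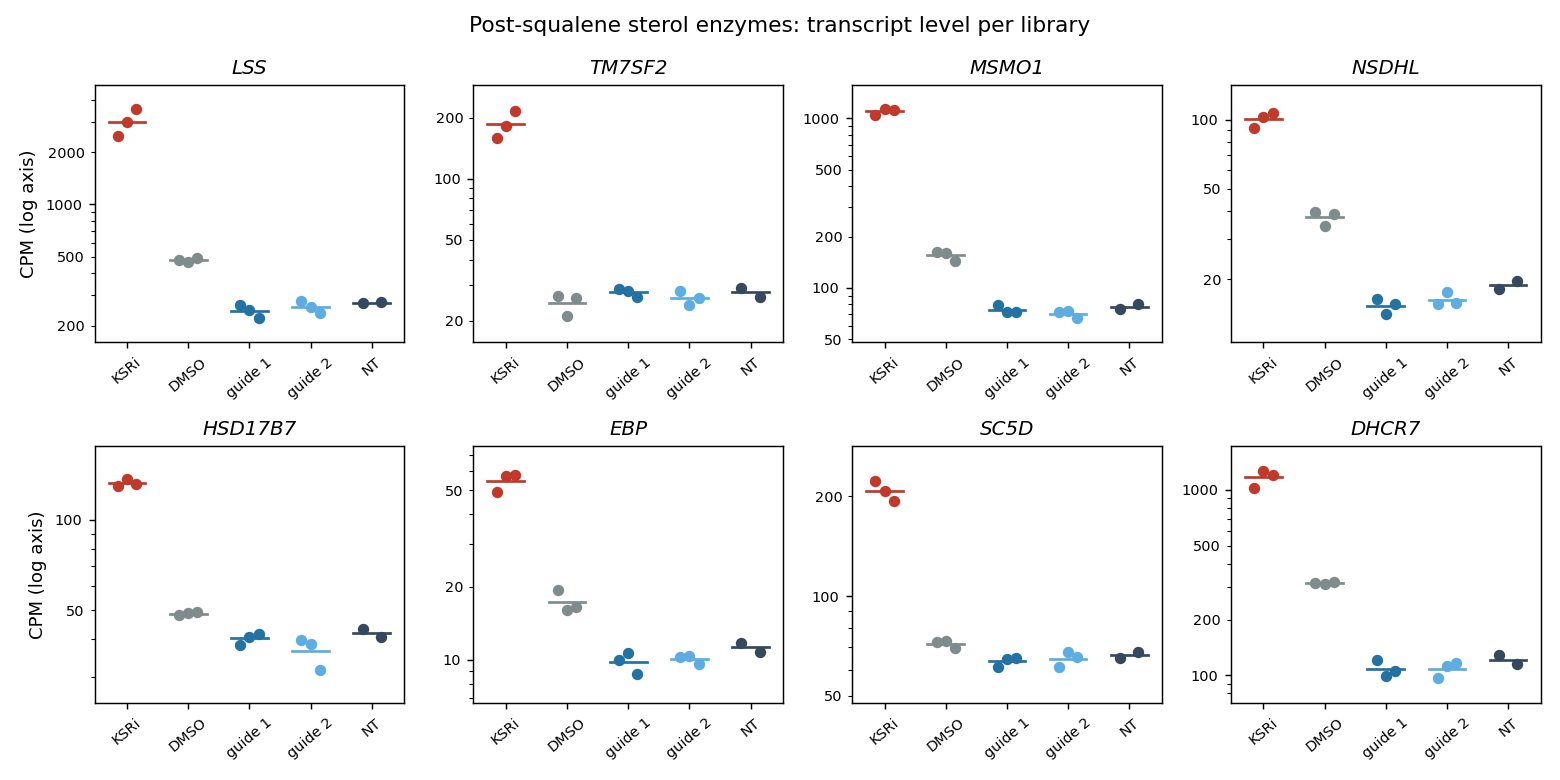
Transcript level of the 8 tested enzymes in CPM (log axis) in each library of the 5 groups; points are libraries and lines are group means. The KSRi points of every enzyme lie above all others, as in 7.58% of tested genes. For 7 enzymes, all but TM7SF2, the guide and NT points lie below the DMSO points on this TMM scale, as in 32.4% of tested genes. The difference of NT from DMSO reaches 0.003 log2 units for HSD17B7 with upper-quartile scaling. For SC5D, not called, it runs from −0.14 to 0.11 under the alternative processing.

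The order of the changes was TM7SF2, MSMO1, LSS, DHCR7, EBP, SC5D, HSD17B7 and NSDHL. The 95% intervals of the first 3 lay at or above 2.42 and those of the other 5 at or below 2.09. Neighbours in that order were compared by the log2 ratio of their levels in each library, in 7 pairs. The LSS to DHCR7 ratio was 1.23 to 1.55 on the log2 scale in KSRi and 0.59 to 0.61 in DMSO, so the ranges did not overlap (difference 0.75). The DHCR7 to EBP ratio was 4.39 to 4.47 in KSRi and 4.02 to 4.28 in DMSO (difference 0.23). In the other 5 pairs the ranges overlapped (differences 0.02 to 0.19). The pairs were set by ranking these same changes, and an exact two-sided permutation test of 3 against 3 libraries cannot give a p below 0.1, so no pair could pass a test at 0.05. Per kilobase of exon, mean levels in KSRi were 415 CPM for LSS, 382 CPM for MSMO1, 281 CPM for DHCR7, 54.3 CPM for TM7SF2, 50.4 CPM for NSDHL, 37.3 CPM for SC5D, 27.9 CPM for HSD17B7 and 22.7 CPM for EBP. In DMSO, on the same scale, DHCR7 stood highest at 75.8 CPM, before LSS at 66 CPM and MSMO1 at 53.8 CPM, while TM7SF2 (7.19 CPM) and EBP (7.21 CPM) stood lowest.

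The genetic comparison asked whether lowering KSR2 itself moved the enzymes. None of the 8 was called with guide 1 (0.00527% of tested genes were called), with guide 2 (0.0105%) or with both guides pooled as 1 effect (0.0158%), and none differed between guide 2 and guide 1 (0.00527%), by edgeR's quasi-likelihood test. Since almost no gene was called in these comparisons, a count of 0 says nothing particular to the set. At an unadjusted p under 0.05, 1 of the 8 enzymes was counted with guide 1 (NSDHL, 0.00716), where 4.64% of all tested genes were. With guide 2 it was 2 of the 8 (NSDHL, 0.0438, and HSD17B7, 0.0373), where 3.6% of all tested genes were. With both guides it was 1 of the 8 against 4.16% of tested genes, and between guide 2 and guide 1 it was 0 of the 8 against 3.24%. The edgeR adjusted p was 0.951 for NSDHL with guide 1 and 1 for both genes with guide 2. The median log2 change of the 8 was −0.11 with guide 1, −0.15 with guide 2 and −0.12 with both, against 0 over all tested genes in each.

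NSDHL was the enzyme with the lowest p. It had 16.4, 14.1 and 15.6 CPM with guide 1 and 15.6, 17.7 and 15.7 CPM with guide 2, against 18.2 and 19.6 CPM in NT. All 6 guide libraries lay below both NT libraries, as in 5.15% of all tested genes. With both guides its log2 difference was −0.26 (SE 0.09, 95% interval −0.44 to −0.07), and the edgeR adjusted p was 0.989. EBP had the same arrangement, with 9.98, 10.7 and 8.77 CPM with guide 1 and 10.3, 10.4 and 9.59 CPM with guide 2, against 11.8 and 10.8 CPM in NT, the nearest libraries being 10.7 CPM with guide 1 and 10.8 CPM in NT (log2 difference −0.18, 95% interval −0.40 to 0.04). LSS, MSMO1 and HSD17B7 were mixed. LSS had 264, 245 and 221 CPM with guide 1 and 277, 257 and 235 CPM with guide 2, against 269 and 272 CPM in NT. MSMO1 had 79.5, 72.1 and 72.2 CPM with guide 1 and 72.4, 73.5 and 66.2 CPM with guide 2, against 74.8 and 80.4 CPM in NT. HSD17B7 had 38.2, 40.8 and 41.7 CPM with guide 1 and 39.7, 38.6 and 31.6 CPM with guide 2, against 43.1 and 40.8 CPM in NT. For LSS guide 1 lay below NT and guide 2 overlapped it, whereas for MSMO1 and HSD17B7 guide 2 lay below NT and guide 1 overlapped it. Over all tested genes 14.2% had every guide 1 library below both NT libraries, and 10.8% had every guide 2 library there. TM7SF2 had 28.8, 27.9 and 26.3 CPM with guide 1 and 28.1, 23.8 and 25.8 CPM with guide 2, against 28.9 and 26.3 CPM in NT. SC5D had 61.1, 64.5 and 65.2 CPM with guide 1 and 60.9, 68 and 65.4 CPM with guide 2, against 65.1 and 68 CPM in NT. DHCR7 had 121, 99.4 and 106 CPM with guide 1 and 96.8, 113 and 116 CPM with guide 2, against 128 and 115 CPM in NT. These 3 overlapped NT with either guide. With both guides the lowest bound of any enzyme's 95% interval was −0.44 (NSDHL) and the highest was 0.19 (TM7SF2).

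The control groups themselves differed at these genes. By edgeR's quasi-likelihood test 6 of the 8 enzymes were lower in NT than in DMSO and 0 were higher, and the direction of 1 of the 6, HSD17B7, flipped with upper-quartile scaling, under which its log2 difference was 0.003. Over all tested genes 31.2% were called lower and 34.6% higher in NT. The median log2 difference was −0.72 for the enzymes and 0.04 for all tested genes. Of the called genes 52.6% were higher in NT, and 66.4% with upper-quartile scaling. That scaling moved the median of all genes to 0.26 and the median of the enzymes to −0.5. DHCR7 differed most, with 128 and 115 CPM in NT against 315, 311 and 320 CPM in DMSO, a 2.59-fold lower level (log2 difference −1.37, SE 0.11, edgeR adjusted p = 1.15e-08). MSMO1 (−1, SE 0.08, edgeR adjusted p = 1.78e-08), NSDHL (−0.98, SE 0.10, 1.89e-07), LSS (−0.82, SE 0.12, 1.43e-05) and EBP (−0.62, SE 0.11, 0.00015) followed. HSD17B7 passed the threshold narrowly (−0.21, edgeR adjusted p = 0.042) and lost the call when any single NT or DMSO library was left out. SC5D (−0.11, edgeR adjusted p = 0.213) and TM7SF2 (0.17, edgeR adjusted p = 0.229) were not called. The SC5D difference ran from −0.14 to 0.11 under the alternative processing, with no call. TM7SF2 was called higher in NT with upper-quartile scaling (0.39, edgeR adjusted p = 0.00674). On the TMM scale all guide 1, guide 2 and NT libraries lay below all DMSO libraries for every enzyme but TM7SF2, 7 of the 8, as in 32.4% of all tested genes. The mitochondrial share was higher in both NT libraries than in any DMSO library, and its part in the difference was not tested. NT and DMSO differ in guide and in solvent, and the labels name no batch, so the sources of this difference cannot be told apart.

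**Figure D3:**
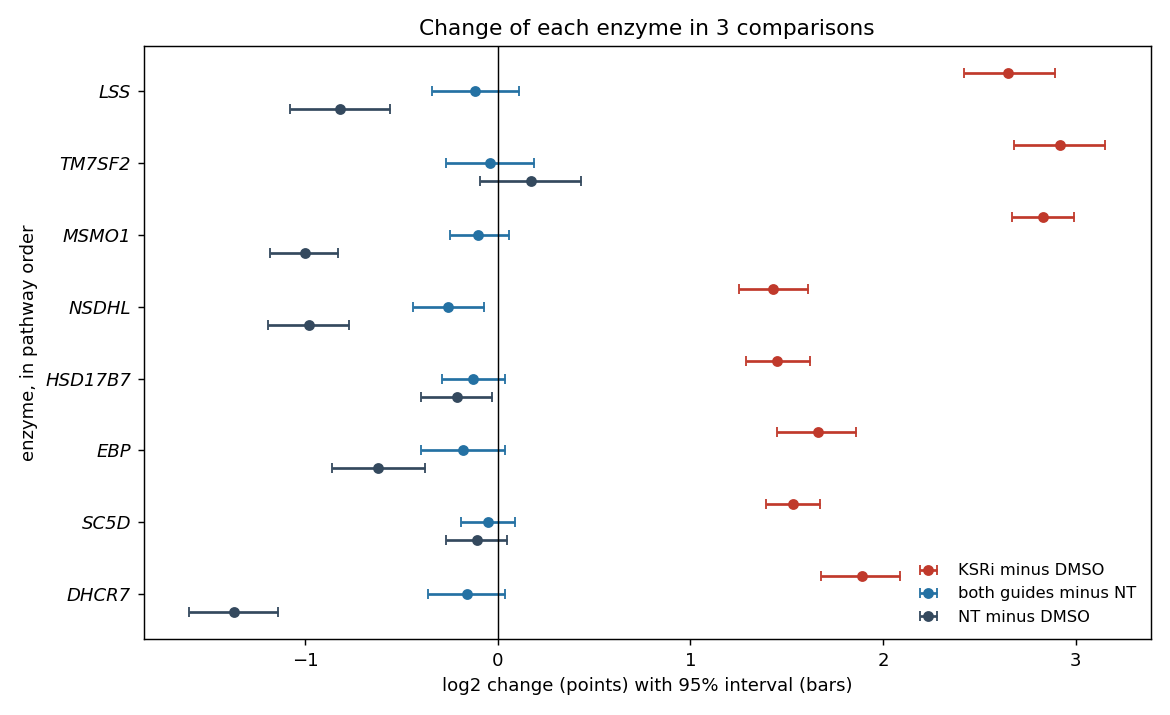
Log2 change of the 8 tested enzymes (points) with 95% intervals (bars) for KSRi minus DMSO, both guides minus NT, and NT minus DMSO. The inhibitor values run from 1.43 to 2.92 and the guide values from −0.26 to −0.04; the control groups differ by up to −1.37 (DHCR7), and HSD17B7 there (−0.21) reaches 0.003 with upper-quartile scaling.

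Averaged over the set, KSRi libraries stood highest, DMSO libraries next, and guide and NT libraries lowest. The log2 level of the 8, each centred on its own mean over the 14 libraries and then averaged, was 1.90 to 2.09 in KSRi libraries, −0.08 to 0.03 in DMSO, −0.81 to −0.72 with guide 1, −0.84 to −0.74 with guide 2 and −0.66 to −0.63 in NT. The effect of the inhibitor differed from the effect of the guides in 8 of 8 enzymes by an interaction term in the edgeR fit, where 16.6% of tested genes had a higher inhibitor effect. The differences of effects ranged from 1.58 log2 units (HSD17B7 and SC5D) to 2.96 (TM7SF2), with edgeR adjusted p between 5.01e-12 (MSMO1) and 8.14e-08 (EBP).

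Other proteins of the route were read from lists chosen for their roles. The background of their counts with the inhibitor is 22.0% of tested genes higher and 18.7% lower. The lists are short, so 2 of 5 higher, 3 of 9 lower or 1 of 8 lower lies not far from these shares. Of the 10 enzymes from acetyl-CoA to squalene epoxide, 9 rose and 0 fell with the inhibitor (median log2 change 2.35), among them HMGCS1, an early synthase (3.19, edgeR adjusted p = 3.76e-14), and MVD, a decarboxylase (3.67, edgeR adjusted p = 2.5e-12). SQLE, which makes the substrate of LSS, rose by 1.52 (edgeR adjusted p = 1.43e-10). Of 5 further proteins of the post-squalene route, 2 rose, among them ERG28, which tethers the demethylating complex (log2 change 2.19, edgeR adjusted p = 2.3e-09). Of 6 electron donors 3 rose, the P450 reductase POR by 0.92, the cytochrome b5 isoform CYB5B by 0.46 and PGRMC1, a partner of P450 enzymes, by 0.20, against 1.43 for NSDHL, the lowest of the 8 enzymes. Of 12 tested genes of sterol sensing and uptake 8 rose and 0 fell (median 1.22), including INSIG1, which retains the SREBP escort protein (2.76), STARD4, a sterol carrier (2.13), and TMEM97 (2.29). Of 8 tested genes of sterol storage, oxysterols and efflux 4 rose and 1 fell (median 0.18). ABCA1, the cholesterol exporter, fell by 0.82 at a low level, with means of 1.48 CPM in KSRi and 2.56 CPM in DMSO. Its inhibitor effect minus its guide effect was not called (−0.56, edgeR adjusted p = 0.0799). NR1H3, an oxysterol receptor, rose by 0.59 and OSBP, an oxysterol-binding protein, by 0.24. Of 9 genes of the isoprenoid branches 0 rose and 3 fell (median −0.05), with PDSS1, of ubiquinone synthesis, at −0.82, NUS1, of dolichol synthesis, at −0.43 and FNTA, a farnesyltransferase subunit, at −0.37, all 3 called by edgeR. No gene of these 6 lists was called with either guide, where 0.00527% of tested genes were called with guide 1 and 0.0105% with guide 2. With so few calls among all genes, this says nothing particular to the lists.

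Between NT and DMSO the same lists gave 9 lower and 0 higher of 10 for acetyl-CoA to squalene epoxide (median −0.78), 4 lower of 5 for the further post-squalene proteins (−0.48), 5 lower of 6 for the electron donors (−0.81), and 6 lower and 2 higher of 12 for sensing and uptake (−0.25). For storage, oxysterols and efflux 3 were lower and 3 higher of 8 (0.03), and for the isoprenoid branches 6 were lower and 0 higher of 9 (−0.53). The background of these counts is again 31.2% of tested genes lower and 34.6% higher, so 3 and 3 of 8 lies near it. With upper-quartile scaling the lower calls were 8 of 10, 2 of 5, 5 of 6, 5 of 12, 2 of 8 and 5 of 9 in the same order of lists. The higher calls were 4 for sensing and uptake and 5 for storage, oxysterols and efflux. Under this scaling 22.1% of tested genes were called lower and 43.7% higher. The list medians then were −0.56, −0.26, −0.6, −0.04, 0.25 and −0.31, again in that order. INSIG1, whose log2 change with the inhibitor was 2.76, had a log2 difference of −0.01 between NT and DMSO (edgeR adjusted p = 0.904), or 0.20 with upper-quartile scaling (edgeR adjusted p = 0.0368), and STARD4 was higher in NT (0.57, edgeR adjusted p = 1.04e-05).

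**Figure D4:**
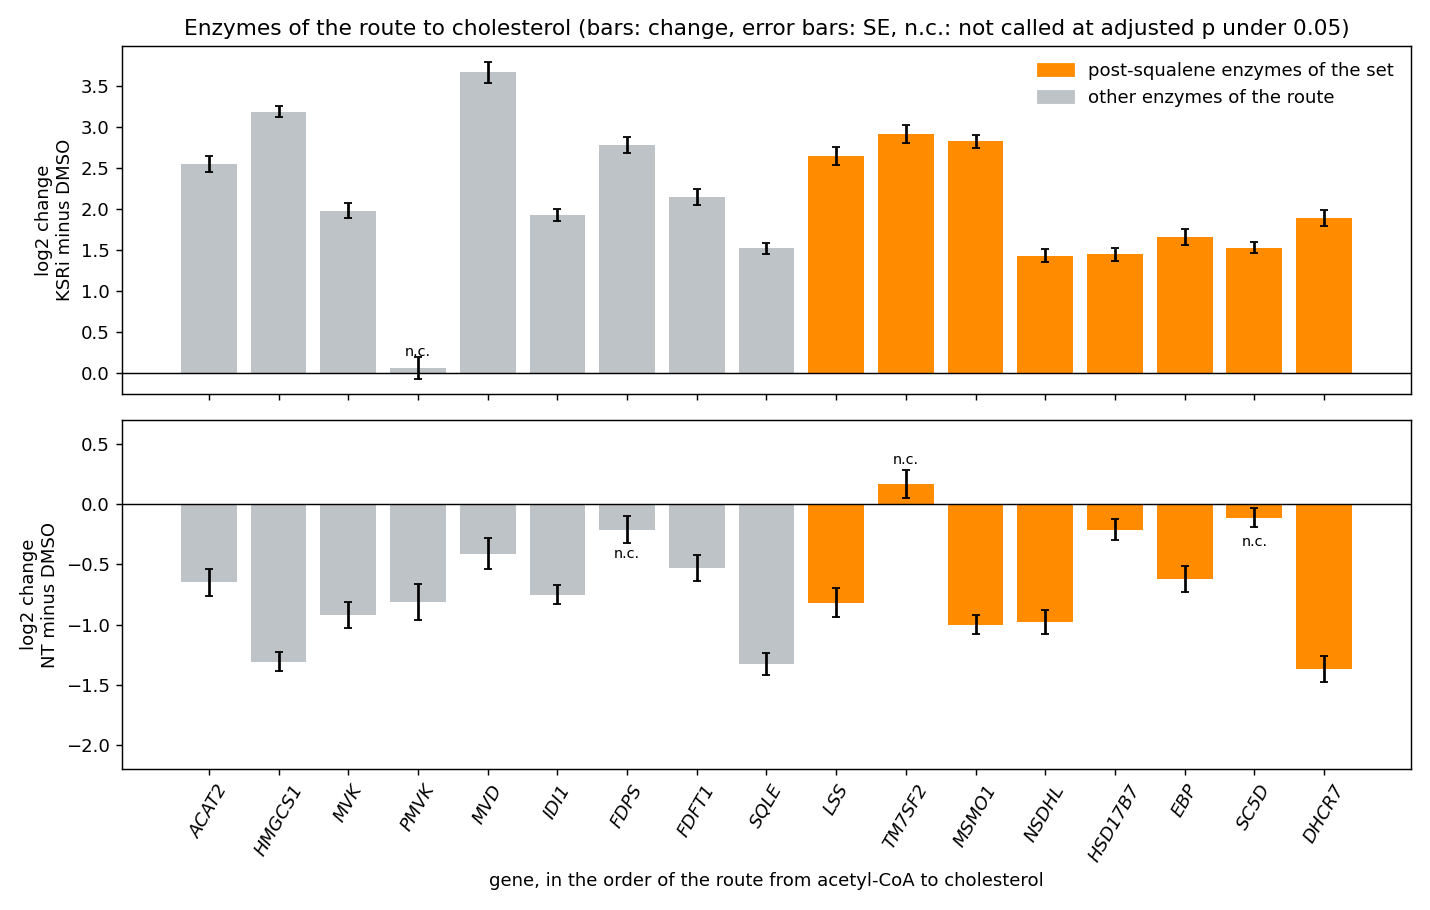
Log2 change of enzymes of the route, in its order, for KSRi minus DMSO (above) and NT minus DMSO (below); bars are changes, error bars are standard errors, orange bars are the post-squalene enzymes, and n.c. marks genes not called. With the inhibitor TM7SF2, MSMO1 and LSS (2.92, 2.83 and 2.65) stand near HMGCS1 (3.19); between the control groups TM7SF2 (0.17) and SC5D (−0.11) were not called, and HSD17B7 (−0.21) reaches 0.003 with upper-quartile scaling.

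The genes most like the enzymes across all 14 libraries were found by the root mean square difference between a gene's centred log2 level and the mean centred profile of the 8, among other genes averaging at least 5 CPM. The closest were FDFT1, squalene synthase (0.10 log2 units), IDI1, an isomerase of the mevalonate arm (0.11), SCD, a fatty acid desaturase (0.13), PANO1 (0.15), MVK, mevalonate kinase (0.17), and ERG28 (0.17). Of the enzymes themselves EBP (0.16) and NSDHL (0.23) lay closest to that mean, and SC5D (0.45) and MSMO1 (0.46) farthest. FDFT1 averaged 3050 CPM in KSRi, 685 CPM in DMSO, 419 CPM with guide 1, 437 CPM with guide 2 and 474 CPM in NT. PANO1 passed the level of 5 CPM only through the inhibitor group, with a mean of 15 CPM in KSRi, 3.34 CPM in DMSO, 2.41 CPM with guide 1, 2.37 CPM with guide 2 and 2.35 CPM in NT. The measure is a description over libraries that share these 5 groups and weighs the KSRi rise most, since that is the widest step in the profile.

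CYP51A1, the P450 that removes a methyl group from lanosterol (ENSG00000001630, chromosome 7, 92112151 to 92134803, minus strand), was close to absent from the counts. It had 3, 11 and 9 counts in KSRi, 3, 2 and 2 in DMSO, 2, 7 and 0 with guide 1, 2, 5 and 4 with guide 2, and 1 and 3 in NT. Pooled over libraries this was 0.261 CPM in KSRi (exact Poisson 95% interval 0.166 to 0.392) and 0.0755 CPM in DMSO (0.0303 to 0.155), intervals that cover counting error only. The KSRi libraries, at 0.101, 0.277 and 0.484 CPM, overlapped the DMSO libraries, at 0.126, 0.0661 and 0.0518 CPM. It did not pass the filter on low counts, and in the edgeR fit with no such filter its log2 change was 1.73 (adjusted p = 0.0368). Neighbours of CYP51A1 in the route, LSS and TM7SF2, had at least 221 CPM and 21.1 CPM in every library.

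The annotation differs at this locus from that at the other 8. Of the 3584 exon bases of CYP51A1 in GENCODE 29, 2844 (79.35%) are shared on the same strand with a second protein-coding gene, ENSG00000285772, which had 0 counts in every library. A further 3.85% are shared with the antisense gene CYP51A1-AS1 on the opposite strand, and 16.8% are shared with no other gene. No other enzyme shared more than 0.47% of its exon bases with a gene on its own strand. Of the 608 protein-coding genes that share at least 75% of their exon bases in this way, 584 (96.1%) had under 1 CPM, against 6693 (40.4%) of the 16560 that share none. The part of this overlap in the low count of CYP51A1 was not tested. The antisense gene CYP51A1-AS1 had at most 2 counts in a library, and the pseudogenes CYP51A1P1, CYP51A1P2 and CYP51A1P3 had at most 1.

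**Figure D5:**
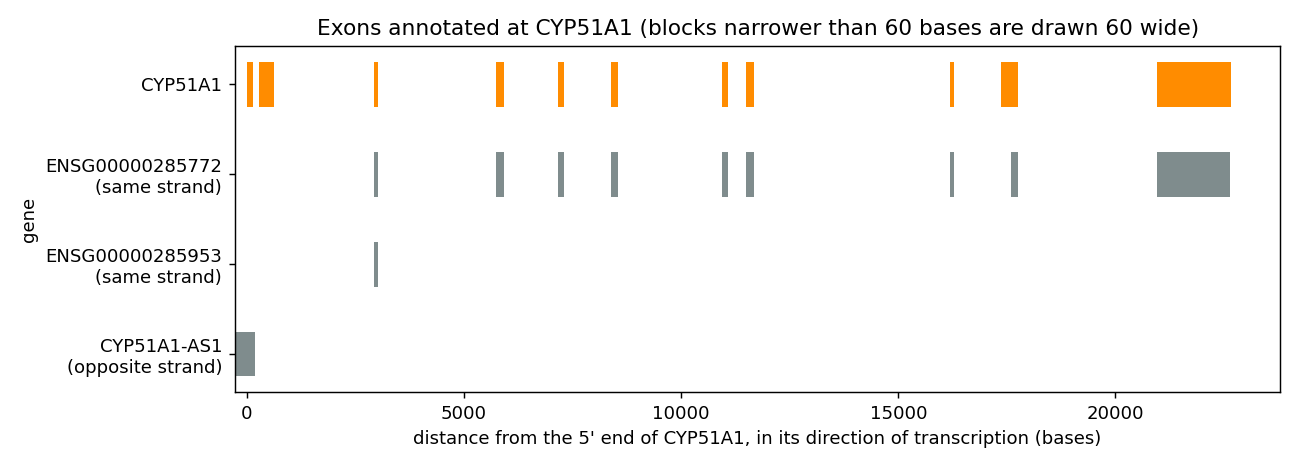
Annotated exon blocks at the CYP51A1 locus, by distance in bases from the 5′ end of CYP51A1 in its direction of transcription (GENCODE 29). Orange blocks are CYP51A1 and grey blocks are overlapping genes; ENSG00000285772 covers 79.35% of the exon bases of CYP51A1 and CYP51A1-AS1, on the opposite strand, a further 3.85%, which leaves 16.8% that no other gene shares.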

How the data were processed

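Polyadenylated RNA of 14 Jurkat libraries was measured. The authors deposited 1 table of gene counts (whole numbers, Ensembl identifiers), with no normalization. STAR 2.7.11b, DESeq2 1.42.1 and GRCh38 are named in the submitters' processing notes. How reads were counted, with which annotation and whether by strand, was not given in the sources used here. Symbols were found for 61369 of 61541 identifiers, and exon overlaps were read from GENCODE 29, which held 58366 of them.

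The counts went into edgeR 4.0.16 under R 4.3.3, with TMM factors and the filterByExpr filter, which left 18963 genes. Each of the 5 groups had its own mean in a single fit to the 14 libraries. Contrasts used the quasi-likelihood F test with Benjamini-Hochberg adjustment over all tested genes (threshold 0.05). The procedure was tested on simulated data for KSRi minus DMSO only, with changes in a small share of genes. The other contrasts were not simulated. Exon lengths are unions over transcripts. Replicates of a group differed beyond sampling noise, so none were merged. Libraries with the same replicate number showed no shared signal between groups, which cannot settle whether samples were paired.

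The enzymes and lists were chosen with earlier results of these data known. Named genes are the 9 enzymes, KSR2, LBR, SQLE, ERG28, HSD17B7P2, up to 3 genes per list with the lowest p with the inhibitor, the 6 genes of most similar profile, and genes that overlap or copy an enzyme. A few other genes covered by the rule are not reported here.

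Results were recomputed with other scaling (RLE, upper quartile), with other filters (none, or 5 CPM in 3 libraries), with DESeq2 1.42.0 and limma-voom (limma 3.58.1), with fits limited to the compared groups, with a replicate block, without each library in turn and at an adjusted p under 0.01. Summing the counts of HSD17B7 and HSD17B7P2 was chosen after seeing the data.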

Additional observations from a re-analysis of the deposited data

Results flagged for a closer look

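The effect of the inhibitor (KSRi minus DMSO) differed from the effect of the guides (mean of both guides minus NT) by a test of the difference itself, an interaction term in the edgeR fit at an adjusted p under 0.05, in each gene below. Values are the first effect minus the second, on the log2 scale. Over all tested genes the inhibitor effect was higher in 16.6% and lower in 12.1% by the same test. HSD17B7P2, ERG28 and SQLE were named whatever their values, though ERG28 also met the rules on low p and on profile. The remaining genes outside the enzymes were named for a low p with the inhibitor or for a profile like that of the enzymes. A difference in those was largely set by that choice and is no separate support. The enzymes too were chosen with earlier results of these data known. Their guide effects ran from −0.26 to −0.04, so their differences of effects largely repeat the change with the inhibitor. Among the enzymes the difference was 2.77 for LSS, 2.96 for TM7SF2, 2.92 for MSMO1, 1.69 for NSDHL, 1.58 for HSD17B7, 1.84 for EBP, 1.58 for SC5D and 2.05 for DHCR7. For HSD17B7P2 it was 1.14 and for ERG28 2.35. In the earlier arm of the route it was 3.15 for HMGCS1, 2.15 for MVK, 3.75 for MVD, 1.88 for IDI1, 2.3 for FDFT1 and 1.63 for SQLE. For genes of sterol sensing and handling it was 2.85 for INSIG1, 2.14 for STARD4, 2.44 for TMEM97, 0.83 for NR1H3 and 0.33 for OSBP. For electron donors it was 1.11 for POR and 0.39 for CYB5B. For SCD it was 2.1 and for PANO1 2.15, both named for their profile over these libraries. PANO1 passed the level of 5 CPM only through the inhibitor group. It was below 0 in 3 genes of the isoprenoid branches, at −0.9 for PDSS1, −0.48 for NUS1 and −0.48 for FNTA.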

How the results depend on the processing

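The 8 calls for KSRi minus DMSO and the 8 differences of effects kept direction and call under every alternative run, with shifts of at most 0.14 log2 units, and no enzyme was called in any guide comparison under any of them. With no low-count filter CYP51A1 was also called higher with the inhibitor (1.73, edgeR adjusted p = 0.0368). That call rests on 23 pooled counts in KSRi against 7 in DMSO, and the libraries of the 2 groups overlapped. Its difference of effects was not called in that fit (1.29, edgeR adjusted p = 0.622). NT minus DMSO was the comparison that moved. SC5D, not called there, changed sign under 2 alternatives and ran from −0.14 to 0.11 over all of them. The count of enzymes higher in NT was 0 as reported and 1 both with a filter of 5 CPM in 3 libraries and with upper-quartile factors; this was TM7SF2 (0.31, edgeR adjusted p = 0.0284, and 0.39, adjusted p = 0.00674). HSD17B7 reversed to 0.003 with upper-quartile factors (edgeR adjusted p = 0.979). Its call was also lost with no filter (−0.18, adjusted p = 0.164), with the stricter filter (−0.07, 0.45), at an adjusted p under 0.01, with HSD17B7P2 counts added (−0.18, 0.084), and without any single library of the 2 groups (−0.25 to −0.17, 0.0652 to 0.221). The cause was not tested. Same-numbered libraries showed no shared signal (correlation of deviations −0.15 to 0.09 over 26 pairs, none over 0.1), which cannot settle whether samples were paired. With the replicate block 8 enzymes were higher in KSRi and 6 lower in NT, so it changed no call. CYP51A1 had at most 11 counts in a library, and whether depth sets this was not tested.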
